A study of Homo sapiens with 36 samples.

Results

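ATF4, CHOP (the protein of the gene DDIT3) and the proteins that act with them form the transcriptional arm of the integrated stress response. The genes described here are 9 of the 36601 genes in the count table, taken by symbol: the bZIP transcription factors ATF4, ATF5, ATF3, DDIT3, CEBPB and CEBPG, the pseudokinase gene TRIB3, the phosphatase subunit gene PPP1R15A and the chromatin-associated cofactor gene NUPR1. All 9 passed the filter on low counts, so none was left out of the tests. None of the guides in the table was named for a member.

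In this response, stress-activated kinases phosphorylate the translation initiation factor eIF2 alpha, which lowers general protein synthesis while translation of ATF4 and ATF5 mRNA goes up through their upstream open reading frames. ATF4 binds DNA as a dimer with C/EBP family proteins and switches on CHOP, ATF3, TRIB3 and many amino acid genes. PPP1R15A (GADD34) brings phosphatase 1 to eIF2 alpha and so closes the loop, and TRIB3 binds ATF4 and dampens its activity. Because ATF4 and ATF5 are governed largely at translation, their mRNA levels do not report their protein levels, and no protein was measured here.

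The question was what the cell does when a HaloTag fusion of one of its own proteins is made to misfold. HEK293 is an established line from human embryonic kidney, and HaloTag is an enzyme-derived protein tag that forms a covalent bond with its ligands. The hydrophobic ligand HyT36 was given at 25 µM, with DMSO as vehicle. Bulk polyA RNA was sequenced from 2 tagged HEK293 clones, called 4 and 5, each with DMSO and with HyT36, in 3 libraries per group; the other 24 of the 36 samples were not analysed here. Per the labels all 4 groups come from the tagged library, each clone stands for 1 edited line, and no untagged cells are among these 12 libraries, so the ligand alone and the ligand acting on a tag cannot be told apart. In clone 4 the guide with the most reads was named for HDAC2 (2318 to 3504 reads per library, against 2 to 18 in clone 5), and in clone 5 it was named for IGF1R (2623 to 3806 reads, against 5 to 13 in clone 4). Exposures of 2 and 12 h are named in the labels, without saying which of them these cultures had.

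Gene reads per library lay between 22853946 and 28635511. Markers of embryonic kidney and HEK293 cells were present throughout, with PAX2 at 12.2 to 14.8 CPM (read counts relative to the library total, scaled by the TMM method) and LIN28B at 128 to 160 CPM, while the neurofilament genes NEFM and NEFL were at or near 0. The libraries also fell apart by transcripts of epithelial cells. The summed level of 12 epithelial markers was 53.4 to 105 CPM in 6 libraries (clone 4 with DMSO replicate 1, replicates 2 and 3 of clone 4 with HyT36, and the 3 clone 5 libraries with DMSO) and 6.12 to 8.16 CPM in the other 6. KRT19 alone was at 32.2 to 69.9 CPM in the first 6 and at 0.0419 to 0.235 CPM in the others, and KRT5 was at 0 in all. KRT7 was at 5.75 to 14.9 CPM and 0.0434 to 0.335 CPM, and these keratins were the highest of the 12 in the first 6. CDH1 (0.185 to 0.973 and 0.216 to 0.565 CPM), CLDN3, CLDN7, ESRP1 and ELF3 overlapped between the classes. The split thus rests on part of the list. Fibroblast markers summed to 6.17 to 9.73 CPM, with 5 of 8 under 1 CPM in every library and FAP at 0. Blood markers summed to 1.28 to 4.61 CPM, with 6 of 8 under 1 CPM and HBB and CD3E at 0. In clone 5 the epithelial split coincides with the ligand groups, so within clone 5 the ligand and the epithelial transcripts cannot be told apart except through clone 4. Mitochondrial transcripts summed to 17800 to 21700 CPM in the libraries with few epithelial transcripts and 18100 to 21700 CPM in those with many. In bulk RNA, fewer cells with a transcript and less of it per cell cannot be told apart.

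CHOP, ATF3 and ATF4 transcripts were called higher with HyT36 in both clones. Of these, only ATF3 held its calls in both clones in every alternative run. With a term for epithelial transcripts, ATF3 was the only one of the 9 called in clone 5. In clone 4, 5 of the 9 transcripts rose (DDIT3, CEBPB, ATF3, CEBPG and ATF4), none fell and 4 did not pass the test. In clone 5, 3 rose (DDIT3, ATF3 and ATF4), none fell and 6 did not pass. The test was edgeR's quasi-likelihood F-test over all 14892 genes that passed the filter, with Benjamini-Hochberg adjustment and a threshold of 0.05. Over all those genes, 2.21% were called higher and 3.36% lower in clone 4, and 3.35% higher and 4.83% lower in clone 5. DESeq2 moved the share of higher calls among all called genes in clone 4 from 39.6% to 48.7%. In clone 5 that share moved from 40.9% to 50.9%. RLE scaling gave 42.1% in clone 4 and 48.8% in clone 5. The median log2 fold change of the 9 members was 0.17 in clone 4 and 0.10 in clone 5, against 0.003 and -0.004 over all genes. In clone 4 the 3 HyT36 libraries did not overlap the 3 DMSO libraries, in either direction, for 6 members (23.5% of all genes), and in clone 5 for 5 members (25.1% of all genes). Of these, PPP1R15A lay lower with HyT36 in clone 4, and ATF5 and TRIB3 lay lower in clone 5.

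**Figure D1:**
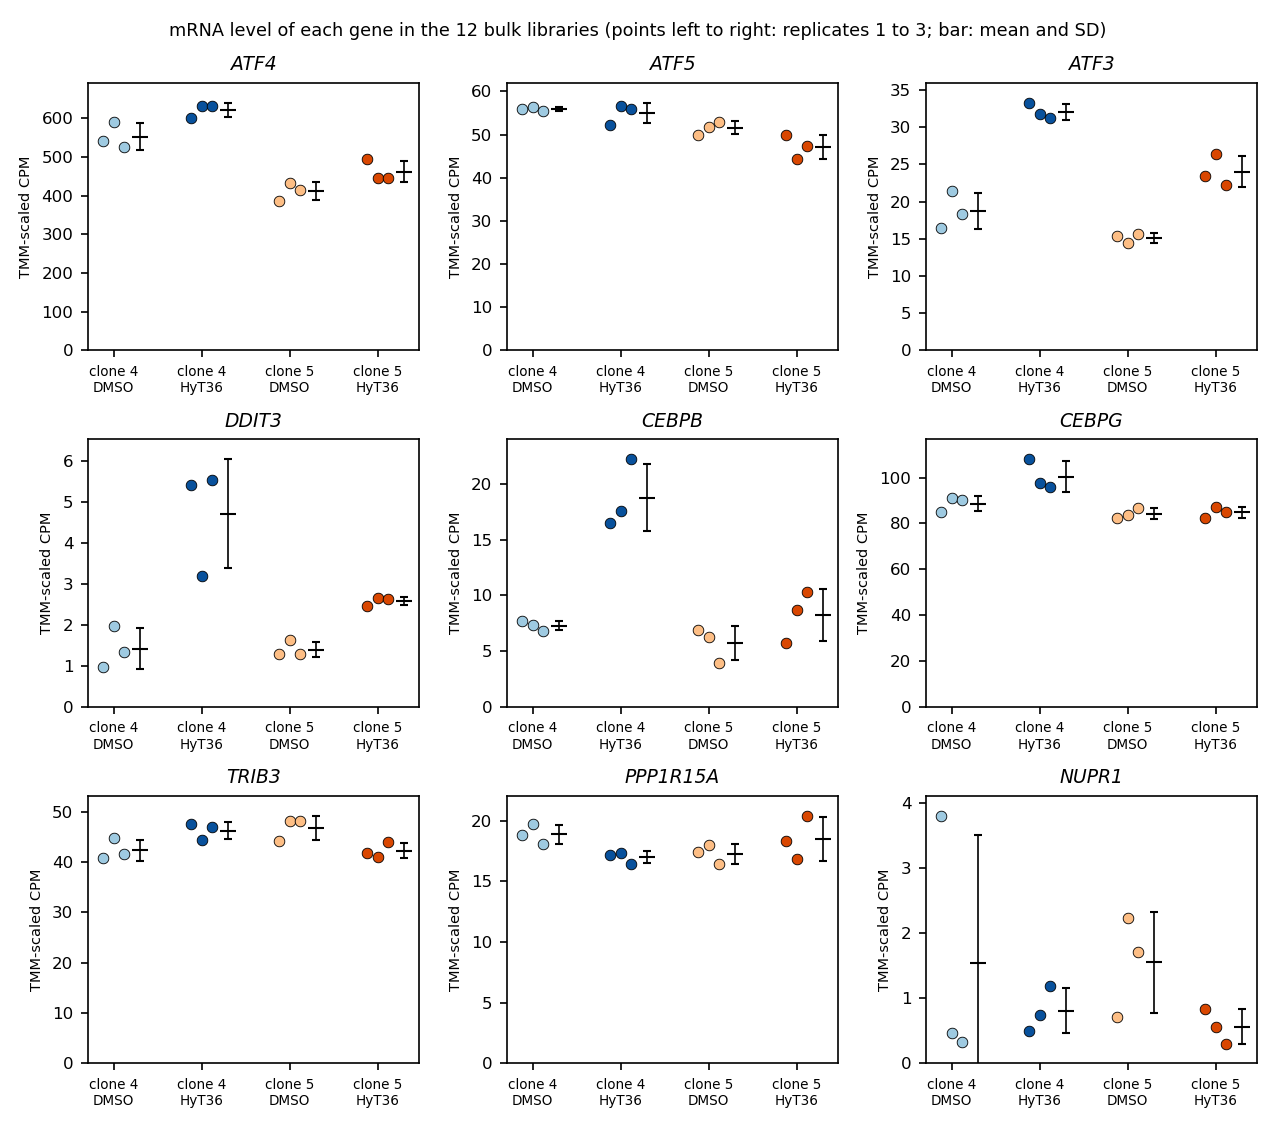
Level of each of the 9 transcripts in TMM-scaled CPM (vertical axes, each from 0) in the 12 libraries, by group, with replicates 1 to 3 from left to right and the mean with its SD at the right of each group (n = 3). ATF3 and DDIT3 show both HyT36 groups above their DMSO groups, CEBPB does so for clone 4, and NUPR1 has 1 high library at 3.81 CPM, for which the lower arm of the SD falls below the axis.

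DDIT3 (ENSG00000175197, chr12:57516588-57520517, GRCh38.p14) encodes CHOP, which pairs with other C/EBP proteins and under lasting stress promotes cell death genes. Its promoter is shown first because DDIT3 had the largest fitted ligand rise of the 9 in both clones. The RefSeq sequence before its more upstream start (chr12:57520518-57520767, minus strand) reads as below, with capitals on an AP-1 match (TGACTCA) and on CCAAT and CCAC with 9 letters between, which is the ER stress element short of its last base.
DDIT3: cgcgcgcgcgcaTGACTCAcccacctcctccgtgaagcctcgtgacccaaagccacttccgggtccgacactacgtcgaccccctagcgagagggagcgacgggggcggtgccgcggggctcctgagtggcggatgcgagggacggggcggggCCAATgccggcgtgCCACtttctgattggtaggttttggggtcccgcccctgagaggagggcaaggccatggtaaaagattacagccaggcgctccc
The AP-1 match lies 238 bases before that start (241 before the other annotated start) and the shortened ER stress element 97 bases before it (100 before the other), at chr12:57520597-57520614. The shortened element was searched for after this promoter had been seen, and 0.316% of the 35116 RefSeq promoter windows hold it. The full element, which ends in CCACG, was in none of the members' windows and in 0.0769% of all.

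DDIT3 was a low transcript. In clone 4 it stood at 0.973, 1.96 and 1.33 CPM with DMSO (23, 50 and 32 reads) and at 5.41, 3.18 and 5.54 CPM with HyT36 (150, 86 and 144 reads). Clone 5 held it at 1.29, 1.62 and 1.28 CPM with DMSO and at 2.47, 2.65 and 2.63 CPM with HyT36. In both clones every HyT36 library lay above every DMSO library, and every clone 4 HyT36 library lay above every clone 5 HyT36 library. The mean of clone 4 went from 1.42 ± 0.500 to 4.71 ± 1.33 CPM (SD, n = 3), a ratio of 3.31, with a fitted log2 fold change of 1.72 ± 0.22 (SE) and an adjusted p of 1.1e-06 (edgeR). The mean of clone 5 went from 1.40 ± 0.194 to 2.58 ± 0.0989 CPM, a ratio of 1.85, with a log2 fold change of 0.88 ± 0.23 and an adjusted p of 0.012 (edgeR). The clone 5 call was lost with a term for epithelial transcripts in the model (log2 0.44, adjusted p 0.51, edgeR) and without clone 5 DMSO replicate 1 (0.061) or replicate 3 (0.052). RefSeq places 2769 of the gene's 3930 bases within the protein-coding gene LOC128125814, which has no row in the count table used here, and 65 within MARS1, whose log2 fold changes were 0.10 ± 0.04 in clone 4 (adjusted p 0.13) and 0.11 ± 0.04 in clone 5 (adjusted p 0.060, edgeR).

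ATF3 (ENSG00000162772, chr1:212565407-212620777) encodes an early stress factor that lies downstream of ATF4 and can repress stress genes in turn. The 250 bases before its most upstream RefSeq start (chr1:212565157-212565406, plus strand) are shown because ATF3 is the member whose ligand calls held in every alternative in both clones. Capitals mark a match to TGATGNAA, where N is any base, the composite element bound by a C/EBP and an ATF protein together.
ATF3: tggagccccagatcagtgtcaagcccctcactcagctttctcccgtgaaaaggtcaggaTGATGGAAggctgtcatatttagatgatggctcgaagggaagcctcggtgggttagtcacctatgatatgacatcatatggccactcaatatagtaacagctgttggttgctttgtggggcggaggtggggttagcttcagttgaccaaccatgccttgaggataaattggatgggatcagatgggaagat
The match lies 191 bases before the start (chr1:212565216-212565223), and 3.62% of all windows hold this motif on either strand.

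With DMSO, ATF3 was at 16.5, 21.4 and 18.3 CPM in clone 4 and at 15.4, 14.4 and 15.6 CPM in clone 5. With HyT36 it was at 33.3, 31.8 and 31.2 CPM in clone 4 and at 23.4, 26.4 and 22.3 CPM in clone 5. The 4 groups did not overlap at all, and ran from clone 5 DMSO up through clone 4 DMSO and clone 5 HyT36 to clone 4 HyT36. The rise in clone 4 was from 18.7 ± 2.47 to 32.1 ± 1.11 CPM (SD, n = 3), a ratio of 1.71 (log2 0.77 ± 0.08, adjusted p 3e-09, edgeR). The rise in clone 5 was from 15.1 ± 0.679 to 24.0 ± 2.16 CPM, a ratio of 1.59 (log2 0.67 ± 0.08, adjusted p 3.5e-07, edgeR). Over the alternatives that were run, the log2 fold change stayed between 0.69 and 0.93 in clone 4 and between 0.51 and 0.73 in clone 5, all past the threshold.

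ATF4 (ENSG00000128272, chr22:39520559-39522686) is the hub of the response, and its protein output depends on translation of its mRNA. Its transcript was at 543, 591 and 526 CPM in clone 4 with DMSO and at 602, 633 and 633 CPM with HyT36. Clone 5 held it at 387, 434 and 416 CPM with DMSO and at 495, 446 and 447 CPM with HyT36. The clones did not overlap under either treatment, and within each clone the HyT36 libraries lay above the DMSO libraries by a narrow margin. The ligand rise was 12.5% in clone 4 (554 ± 33.7 to 623 ± 18.1 CPM) and 12.2% in clone 5 (412 ± 23.7 to 463 ± 28.0 CPM; SD, n = 3), with log2 fold changes of 0.17 ± 0.05 in both and adjusted p of 0.044 and 0.039 (edgeR). Both calls were at the edge of the threshold. The clone 4 call was lost in 11 of 21 alternatives (adjusted p up to 0.53, edgeR), among them leaving out any of clone 4 DMSO replicate 1 (0.17) or 3 (0.15), clone 4 HyT36 replicate 1 (0.051), 2 (0.15) or 3 (0.17), clone 5 DMSO replicate 3 (0.099) and clone 5 HyT36 replicate 2 (0.0504) or 3 (0.056). The clone 5 call was lost in 7 of 19, among them leaving out clone 4 DMSO replicate 1 (0.066), clone 4 HyT36 replicate 2 (0.0501), clone 5 DMSO replicate 1 (0.18) or 3 (0.10) and clone 5 HyT36 replicate 1 (0.15). With a term for epithelial transcripts both calls were lost, at similar fold changes and larger standard errors. The log2 values were 0.16 ± 0.06 in clone 4 (adjusted p 0.096) and 0.18 ± 0.08 in clone 5 (adjusted p 0.21, edgeR). Both calls were also lost with limma-voom (0.063 and 0.067). The 0.53 in clone 4 came from only the libraries with few epithelial transcripts.

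CEBPB (ENSG00000172216, chr20:50190583-50192690) encodes a C/EBP factor that pairs with ATF4 and with CHOP. In clone 4 it was at 7.66, 7.34 and 6.83 CPM with DMSO and at 16.5, 17.6 and 22.2 CPM with HyT36. In clone 5 it was at 6.87, 6.26 and 3.97 CPM with DMSO and at 5.69, 8.69 and 10.3 CPM with HyT36. The HyT36 libraries of clone 4 all lay above its DMSO libraries, and the clone 5 groups overlapped. The mean of clone 4 went from 7.27 ± 0.420 to 18.8 ± 3.00 CPM (SD, n = 3), a ratio of 2.58 (log2 1.37 ± 0.24, adjusted p 0.012, edgeR). In clone 5 the log2 fold change was 0.53 ± 0.26, with a 95% interval of -0.07 to 1.13 (adjusted p 0.32, edgeR). The clone 4 call was lost without clone 4 DMSO replicate 3 (adjusted p 0.051), with only the libraries with many epithelial transcripts (0.070) and with a replicate block (0.13), with the log2 value between 1.22 and 1.45 over all alternatives. RefSeq places the antisense RNA CEBPB-AS1 over 1487 of the 2108 bases of CEBPB, and the count table gave it 0 to 8 reads per library.

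CEBPG (ENSG00000153879, chr19:33373709-33382686) encodes a short C/EBP factor that dimerises with ATF4. It is the other member with a composite C/EBP-ATF match, 42 bases before an annotated start (chr19:33374071-33374078), shown in capitals within 30 bases of the plus strand (chr19:33374060-33374089).
CEBPG: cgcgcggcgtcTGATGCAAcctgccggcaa
Clone 4 held CEBPG at 84.9, 90.9 and 90.2 CPM with DMSO and at 108, 97.7 and 95.7 CPM with HyT36, with no overlap. In clone 5 it was 82.2, 83.7 and 86.8 CPM with DMSO and 82.6, 87.3 and 84.8 CPM with HyT36, with overlapping groups. CEBPG rose by 13.2% in clone 4 (log2 0.18 ± 0.05, adjusted p 0.011, edgeR), and in clone 5 the log2 fold change was 0.01 ± 0.05 with a 95% interval of -0.08 to 0.10 (adjusted p 0.93). Without clone 4 HyT36 replicate 1, the highest library, the clone 4 value was 0.13 (adjusted p 0.16), and without clone 4 DMSO replicate 1 the adjusted p was 0.055 (edgeR).

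ATF5 (ENSG00000169136, chr19:49928906-49933935) encodes a factor translated under the same upstream open reading frame logic as ATF4 and linked to mitochondrial stress. It was at 55.9, 56.3 and 55.5 CPM in clone 4 with DMSO and at 52.3, 56.7 and 56.0 CPM with HyT36. Clone 5 held ATF5 at 50.0, 51.8 and 53.0 CPM with DMSO and at 49.9, 44.3 and 47.4 CPM with HyT36, where the HyT36 libraries lay just below. Neither response passed the test: the log2 fold change was -0.02 ± 0.05 in clone 4 (95% interval -0.13 to 0.08, adjusted p 0.86) and -0.13 ± 0.05 in clone 5 (95% interval -0.23 to -0.02, adjusted p 0.14, edgeR). A stretch of 599 of its 5030 bases is shared with NUP62, which fell in clone 5 (log2 -0.21 ± 0.04, adjusted p 0.0013, edgeR). One of its RefSeq promoter windows holds an AP-1 match 188 bases before the start, and 4.95% of all windows hold one.

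TRIB3 (ENSG00000101255, chr20:380760-397559), the feedback inhibitor of ATF4, did not pass the test in either clone. Its levels were 40.8, 44.7 and 41.6 CPM in clone 4 with DMSO and 47.6, 44.3 and 46.9 CPM with HyT36. They were 44.1, 48.2 and 48.2 CPM in clone 5 with DMSO and 41.9, 41.0 and 43.9 CPM with HyT36. The clone 4 groups overlapped, and in clone 5 all HyT36 libraries lay below the DMSO libraries. The log2 fold changes had opposite signs, 0.13 ± 0.06 in clone 4 (adjusted p 0.20) and -0.15 ± 0.06 in clone 5 (adjusted p 0.092, edgeR).

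PPP1R15A (ENSG00000087074, chr19:48872421-48876058), the stress-induced partner of phosphatase 1, also did not pass in either clone. Its upstream sequence (chr19:48872171-48872420, plus strand) is shown because it is the only member window with a full cyclic AMP response element (TGACGTCA, in capitals), an ATF and CREB family motif found in 1.85% of all windows.
PPP1R15A: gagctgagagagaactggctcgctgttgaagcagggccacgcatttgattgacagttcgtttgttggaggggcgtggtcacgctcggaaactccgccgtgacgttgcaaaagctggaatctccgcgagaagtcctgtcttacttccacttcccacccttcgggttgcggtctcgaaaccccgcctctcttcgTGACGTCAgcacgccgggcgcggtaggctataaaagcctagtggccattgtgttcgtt
The match lies 58 bases before the start (chr19:48872363-48872370). PPP1R15A was at 18.8, 19.7 and 18.1 CPM in clone 4 with DMSO and at 17.2, 17.3 and 16.4 CPM with HyT36, with the HyT36 libraries below. In clone 5 it was at 17.4, 18.0 and 16.4 CPM with DMSO and at 18.3, 16.8 and 20.4 CPM with HyT36, with overlapping groups. The log2 fold changes were -0.15 ± 0.08 in clone 4 (adjusted p 0.28) and 0.10 ± 0.08 in clone 5 (adjusted p 0.52, edgeR), so the transcript of the eIF2 alpha phosphatase partner was not among those that rose with DDIT3 and ATF3.

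Of the 9 members, 8 matched RefSeq promoter windows (GRCh38.p14, 250 bases before to 50 after each start, 17 windows in all), with no entry for NUPR1. The composite, cyclic AMP, AP-1 and ER stress motifs were searched on both strands, and no 2 matches overlapped. The windows of ATF4, CEBPB and TRIB3 held none of these letters. A match is a description of the sequence and not a bound site.

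NUPR1 (ENSG00000176046, chr16:28532708-28538974) encodes a small stress-induced cofactor that interacts with ATF4. In clone 4 it was at 3.81, 0.471 and 0.333 CPM with DMSO (90, 12 and 8 reads) and at 0.505, 0.740 and 1.19 CPM with HyT36 (14, 20 and 31 reads). In clone 5 it was at 0.708, 2.24 and 1.71 CPM with DMSO (17, 61 and 47 reads) and at 0.837, 0.565 and 0.297 CPM with HyT36 (20, 13 and 7 reads). The groups overlapped in both clones, and clone 4 with DMSO spanned more than the other 3 groups together. NUPR1 lay between 0.297 and 0.837 CPM (median 0.488) in the 6 libraries with few epithelial transcripts and between 0.708 and 3.81 CPM (median 1.45) in the 6 with many. Its ligand response was -0.91 ± 0.92 on the log2 scale in clone 4 (adjusted p 0.67) and -1.46 ± 0.97 in clone 5 (adjusted p 0.48, edgeR). Without clone 4 DMSO replicate 1, the library highest in both, the clone 4 value was 0.99 (adjusted p 0.30), and the clone 5 value of -1.46 had an adjusted p of 0.0090 (edgeR). With a term for epithelial transcripts the clone 5 value was 0.91 (adjusted p 0.65, edgeR), and with only the libraries with many epithelial transcripts the clone 4 value was -1.97 (adjusted p 0.013), so no direction is given for NUPR1. The part of epithelial transcripts in these values was not tested further.

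**Figure D2:**
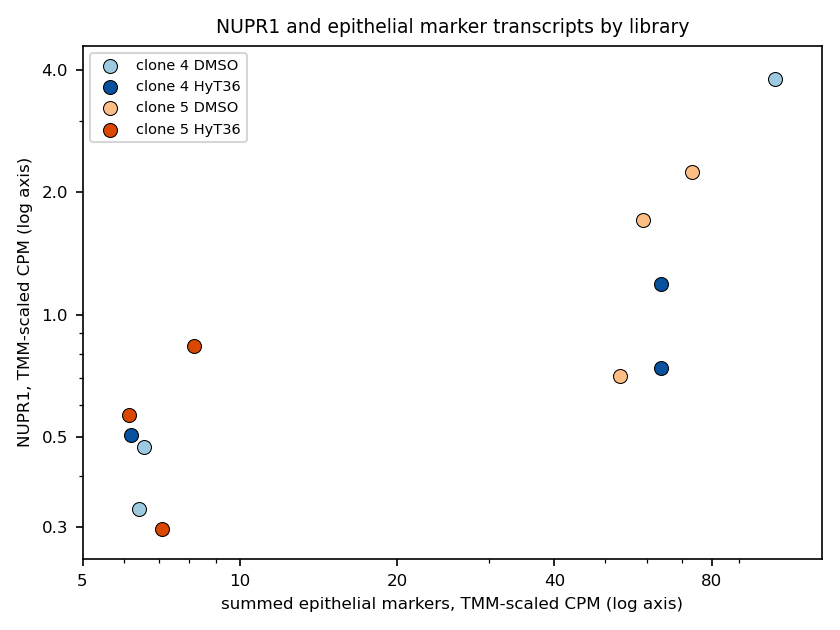
NUPR1 level (vertical, TMM-scaled CPM, log axis) against the summed level of 12 epithelial markers (horizontal, TMM-scaled CPM, log axis), 1 point per library, coloured by group. The 6 libraries at 53.4 to 105 CPM of epithelial markers hold NUPR1 at 0.708 to 3.81 CPM, and the 6 at 6.12 to 8.16 CPM hold it at 0.297 to 0.837 CPM, and each side holds libraries of both treatments.

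All 9 members overlapped between libraries with few and with many epithelial transcripts. Each class holds libraries of both clones and both treatments, so the overlap cannot show whether the levels go with these transcripts. DDIT3 ranged from 1.33 to 5.41 CPM (median 2.55) with few and from 0.973 to 5.54 CPM (median 1.46) with many. ATF3 ranged from 18.3 to 33.3 CPM (median 22.8) with few and from 14.4 to 31.8 CPM (median 16.1) with many. The medians of ATF5, TRIB3 and NUPR1 were lower with few, and those of the other members were higher.

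**Figure D3:**
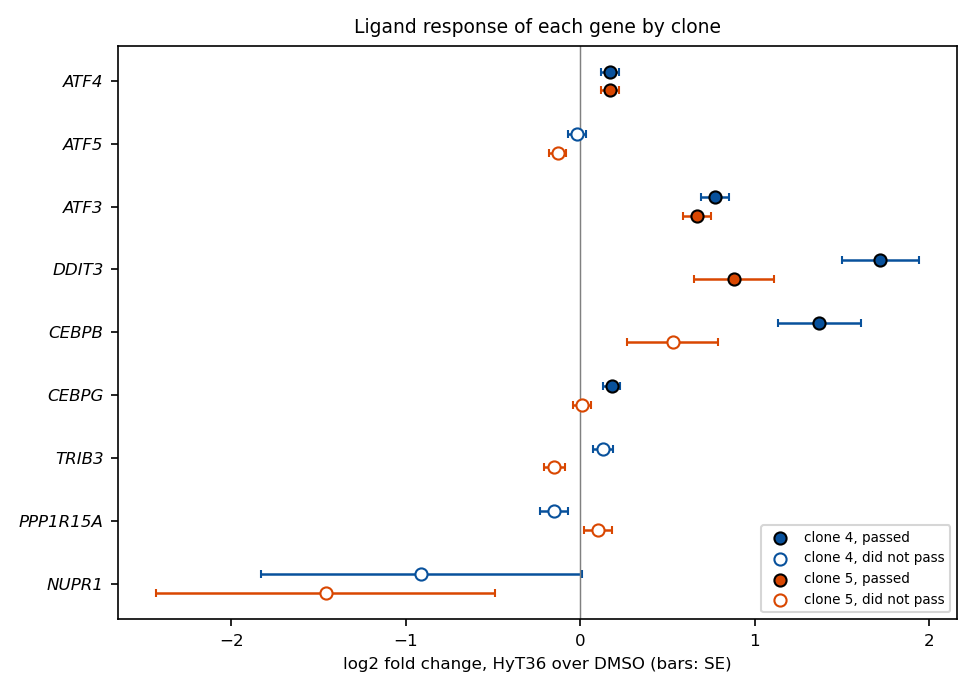
Fitted log2 fold change of HyT36 over DMSO (horizontal axis) for each of the 9 genes in clone 4 (blue) and clone 5 (orange), with bars of 1 SE; filled points passed an adjusted p of 0.05 and open points did not. DDIT3 (1.72 and 0.88) and ATF3 (0.77 and 0.67) passed in both clones, and NUPR1 has the widest bars.

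The response of each gene was then compared between the clones by an interaction contrast. None of the 9 passed over all genes tested, where 0.302% of genes did. DESeq2 and limma-voom also called 0. DDIT3 and CEBPB responses were each 0.83 log2 units smaller in clone 5, with SE 0.33 and 0.35, 95% intervals of -1.49 to -0.17 and -1.64 to -0.02, unadjusted p of 0.015 and 0.045, and adjusted p of 0.45 and 0.61 (edgeR). For TRIB3 the difference was -0.28 ± 0.08 (unadjusted p 0.0011, the smallest of the 9, adjusted p 0.16). For PPP1R15A it was 0.25 ± 0.11 (unadjusted p 0.025, adjusted p 0.53, edgeR). For CEBPG it was -0.17 ± 0.06 (unadjusted p 0.013, adjusted p 0.43), which passed with a term for epithelial transcripts (-0.33, adjusted p 0.022, edgeR). In all, 5 members had an unadjusted p under 0.05. The response of ATF4 differed by 0.00 (95% interval -0.15 to 0.14) and that of ATF3 by -0.11 (95% interval -0.33 to 0.12). For NUPR1 it was -0.55 ± 1.34 (adjusted p 0.96), and -2.46 (adjusted p 0.044, edgeR) without clone 4 DMSO replicate 1. With all libraries and no added term, a difference between clones was thus not called for any member at this depth and number of libraries. The CEBPB and CEBPG responses nonetheless passed in clone 4 and not in clone 5.

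The clones also differed in level. With DMSO, ATF4 was lower in clone 5 by 25.5% (log2 -0.42 ± 0.05, adjusted p 1.8e-07, edgeR) and ATF3 by 19.3% (log2 -0.31 ± 0.08, adjusted p 0.0016), while TRIB3 was 10.5% higher (log2 0.14 ± 0.06, adjusted p 0.025). The other 6 did not pass. Of these, ATF5 (log2 -0.11 ± 0.05, adjusted p 0.058) passed without clone 5 HyT36 replicate 2 (0.045), with RLE scaling (0.047) and with a term for epithelial transcripts (0.044), and NUPR1 (0.04 ± 0.86) was 1.95 log2 units higher in clone 5 without clone 4 DMSO replicate 1 (adjusted p 0.00054, edgeR). Over all genes, 27.3% were called higher and 28.2% lower in this comparison, so 3 of 9 is no more than the background. ATF4, ATF5, ATF3 and PPP1R15A lay wholly lower in clone 5 and none wholly higher, while 29.9% of all genes lay wholly lower and 29.8% wholly higher. DDIT3 had the same mean in both, 1.42 and 1.40 CPM (log2 -0.03 ± 0.25). The ATF3 call was lost with a term for epithelial transcripts (log2 -0.20, adjusted p 0.078), and the TRIB3 call without clone 4 DMSO replicate 1 (0.10) or 3 (0.081) or clone 5 DMSO replicate 2 (0.095) or 3 (0.11).

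Under HyT36, 7 of the 9 were lower in clone 5 and none was higher, beside 28.9% of all genes called lower and 27% called higher. CEBPB was lower by 56.2% (log2 -1.19 ± 0.23, adjusted p 0.0022, edgeR), DDIT3 by 45.2% (log2 -0.87 ± 0.21, adjusted p 0.00060), ATF4 by 25.7% and ATF3 by 25.1%. CEBPG, ATF5 and TRIB3 were lower by 15.4%, 14.1% and 8.68%. PPP1R15A (log2 0.12 ± 0.08, adjusted p 0.18) and NUPR1 (log2 -0.51 ± 1.03, adjusted p 0.70) did not pass. For these 7 the libraries of the clones did not overlap, and over all genes tested 31.7% lay wholly lower in clone 5 and 30.5% wholly higher. The TRIB3 call was lost in 10 of 18 alternatives, with adjusted p from 0.025 to 0.14 over all of them, and the other 6 calls held in all 18. The DMSO and HyT36 comparisons use different libraries of the same clones, whereas each shares libraries with the ligand comparisons above.

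**Figure D4:**
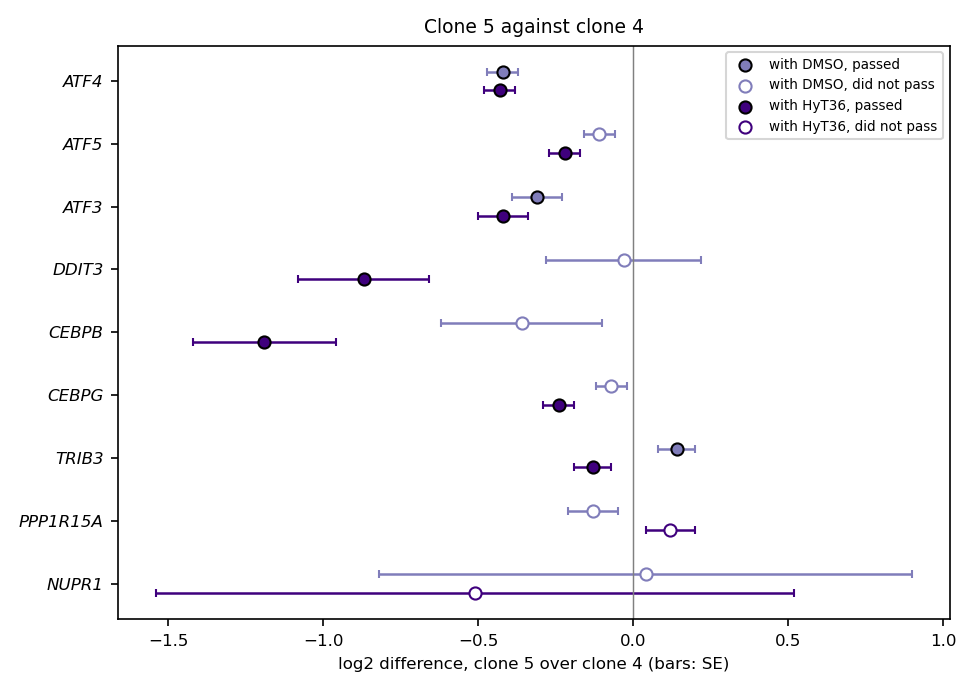
Fitted log2 difference of clone 5 over clone 4 (horizontal axis) for each of the 9 genes with DMSO (light) and with HyT36 (dark), with bars of 1 SE; filled points passed an adjusted p of 0.05 and open points did not. ATF4 is equally lower in clone 5 under both treatments (-0.42 and -0.43), and DDIT3 passed with HyT36 (-0.87) and not with DMSO (-0.03).

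The targets of ATF4 and CHOP were read from a list of 48 genes, all of which were tested. The list was chosen with earlier results of these data known, so its counts are a description and not a test. In clone 4, 21 rose and 2 fell, with a median log2 fold change of 0.13, and in clone 5, 13 rose and 2 fell, with a median of 0.07. Over all genes, 2.21% rose and 3.36% fell in clone 4, and 3.35% rose and 4.83% fell in clone 5. CHAC1, which degrades glutathione, went from 4.61 ± 0.524 to 65.2 ± 2.04 CPM in clone 4 (log2 3.82 ± 0.09) and from 1.19 ± 0.0937 to 8.70 ± 1.12 CPM in clone 5 (log2 2.86 ± 0.13; SD, n = 3). HERPUD1, a component of ER-associated degradation, rose by 1.06 ± 0.05 and 0.63 ± 0.05 log2 units, and STC2, a secreted glycoprotein, by 0.77 ± 0.05 and 0.39 ± 0.06. The amino acid carriers SLC38A2 (log2 0.58 ± 0.05 and 0.33 ± 0.05) and SLC3A2 (0.33 ± 0.04 in both) rose as well. All 10 of these values had an adjusted p of 3.5e-05 or less (edgeR). DDIT4 (log2 3.59 ± 0.18 and 1.86 ± 0.20) and ASNS (2.28 ± 0.27 and 1.00 ± 0.29) rose in both clones too. Their adjusted p was 0.024 or less (edgeR), and they were named after their values were seen. Against these, the death receptor gene TNFRSF10B, a known CHOP target, fell in both clones (log2 -0.26 ± 0.04 and -0.32 ± 0.04). The secreted factor gene GDF15 fell in clone 4 (-1.66 ± 0.30, adjusted p 0.00021, edgeR, from 2.09 to 0.661 CPM). NIBAN1 fell in clone 5 (-2.14 ± 0.35, adjusted p 8.3e-05, edgeR, from 0.964 to 0.212 CPM). These 3 were named after their values were seen. The count of rises in clone 5 was 8 with a term for epithelial transcripts.

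By the interaction test 6 of the 48 targets differed in their response, all with a lower log2 fold change in clone 5, beside 0.302% of all genes in either direction. CHAC1, HERPUD1 and STC2 rose less in clone 5, SESN2 (log2 0.79 and 0.07) and VEGFA (0.55 and 0.11) rose in clone 4 and did not pass in clone 5, and NIBAN1 had a fall in clone 5 with no change called in clone 4 (log2 -0.04 ± 0.14, adjusted p 0.93, edgeR). Without clone 4 HyT36 replicate 2, CHAC1, HERPUD1 and NIBAN1 were the 3 targets called, and without clone 5 HyT36 replicate 2 they were CHAC1, HERPUD1 and VEGFA. With a term for epithelial transcripts, 4 of the 6 were called again (without STC2 and VEGFA), DDIT4 was added, and GDF15 was called with a higher value in clone 5. As for levels, 31 of the 48 were lower and 6 higher in clone 5 with DMSO (median log2 -0.23), and 37 were lower and 5 higher with HyT36 (median -0.30), against medians of 0.002 and -0.005 over all genes. The shares of all genes were 28.2% lower and 27.3% higher with DMSO, and 28.9% lower and 27% higher with HyT36.

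Upstream of ATF4, transcripts of the eIF2 alpha kinases and their relay had small fold changes where they were called. In clone 4, 1 of the 19 genes rose, and in clone 5, 3 rose, with none falling in either. The shares of all genes were 2.21% higher and 3.36% lower in clone 4, and 3.35% and 4.83% in clone 5. Of 19 genes, EIF2AK3, the ER-resident kinase PERK, was the only one called in clone 4 (log2 0.39 ± 0.09, adjusted p 0.0067, edgeR), and it also passed in clone 5 (0.28 ± 0.09, adjusted p 0.0497). In clone 5 EIF2AK4, the amino acid sensing kinase GCN2 (0.14 ± 0.04, adjusted p 0.015), and EIF2S3, the gamma subunit of eIF2 (0.11 ± 0.03, adjusted p 0.044), passed as well. EIF2AK1 (0.12 ± 0.04 and 0.08 ± 0.04) and GCN1 (0.07 ± 0.04 and 0.11 ± 0.04) did not pass. Each of these 4 calls was lost when single libraries were left out. EIF2AK3 in clone 4 had an adjusted p of 0.053 without clone 4 DMSO replicate 2 and 0.074 without clone 4 HyT36 replicate 3, and it did not pass within the libraries with few (0.21) or with many (0.23) epithelial transcripts. In clone 5 it had up to 0.22 without single libraries, 0.079 with DESeq2 and 0.060 with limma-voom and with a replicate block. Without clone 5 HyT36 replicate 2, EIF2AK4 had 0.075 and EIF2S3 0.18, with a term for epithelial transcripts they had 0.27 and 0.30, and EIF2S3 had 0.092 with a replicate block.

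Among 46 other bZIP factors, 40 were tested. In clone 4, 2 rose and 4 fell (2.21% and 3.36% of all genes), and in clone 5, 1 rose and 4 fell (3.35% and 4.83% of all genes). XBP1, the ER stress factor activated by IRE1 splicing, went from 133 ± 0.440 to 199 ± 3.06 CPM in clone 4 (log2 0.58 ± 0.04, adjusted p 2.1e-14, edgeR) and was at 131 ± 4.73 and 131 ± 3.66 CPM in clone 5 (adjusted p 0.99), and its response was smaller in clone 5 by 0.58 ± 0.05 log2 units (adjusted p 6.9e-09). NFIL3 was the other that rose in clone 4 (0.42 ± 0.10) and MAFG, a small MAF protein gene, the one that rose in clone 5 (0.31 ± 0.06). The AP-1 genes JUNB and FOSL1 and the small MAF gene MAFK fell in both clones: JUNB by 0.86 and 0.50, MAFK by 0.57 and 0.37 and FOSL1 by 0.31 and 0.50 log2 units. With a term for epithelial transcripts, which differ between the treatments in clone 5, the clone 5 calls of JUNB (-0.39, adjusted p 0.16), MAFG (0.25, adjusted p 0.12) and TEF (-0.30, adjusted p 0.25, edgeR) were lost. FOSL2 fell in clone 4 (-0.68 ± 0.15) and TEF in clone 5 (-0.35 ± 0.10). The FOSL1 value in clone 4 was -0.21 (adjusted p 0.092) without clone 4 DMSO replicate 2 and -0.12 (adjusted p 0.52) with only the libraries with many epithelial transcripts. With only those with few, NFIL3 was at 0.39 (adjusted p 0.20, edgeR). In addition, without clone 4 HyT36 replicate 3 FOSL2 had an adjusted p of 0.051, and TEF lost its call without any of 4 clone 5 libraries (0.058 to 0.12). NFIL3 and FOSL2 were named after their values were seen.

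Paralogs of TRIB3 and PPP1R15A gave a mixed picture. TRIB1, a pseudokinase that steers C/EBP proteins to degradation, fell in both clones (log2 -0.54 ± 0.11, adjusted p 0.0011, and -0.44 ± 0.11, adjusted p 0.0082, edgeR), from 10.7 ± 1.39 to 7.36 ± 0.902 CPM and from 9.32 ± 0.375 to 6.85 ± 0.607 CPM. The clone 4 value was -0.25 (adjusted p 0.59) with only the libraries with few epithelial transcripts. The clone 5 value was -0.42 (adjusted p 0.13) with a term for those transcripts and -0.36 (adjusted p 0.072, edgeR) without clone 5 HyT36 replicate 3. TRIB2 and PPP1R15B did not pass in either clone, and NUPR2 did not pass the filter on low counts. Of the 3 paralogs tested, 1 was thus called lower in each clone, where 3.36% and 4.83% of all genes were. Of 4 regulators of member proteins, COP1, a ubiquitin ligase that TRIB proteins bind, rose in clone 4 (0.28 ± 0.06, adjusted p 0.0020) and did not pass in clone 5 (0.13 ± 0.06, adjusted p 0.18). With only the libraries with few epithelial transcripts its clone 4 value was 0.21 (adjusted p 0.31, edgeR). BTRC and FBXW11, the ligase subunits that target ATF4, and the acetyltransferase EP300 did not pass in either clone. Of the 4 regulators, 1 rose in clone 4 and 0 in clone 5, where 2.21% and 3.35% of all genes rose.

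The members were also described by how their log2 CPM moved over the 12 libraries, which fall into 4 groups that share clone and treatment. The highest correlations among members were between DDIT3 and ATF3 (Pearson r 0.91), ATF3 and CEBPB (0.83) and DDIT3 and CEBPB (0.82), and ATF4 went most closely with CEBPG (0.76). TRIB3, PPP1R15A and NUPR1 had no correlation above 0.36 with any other member. Over the genes whose log2 CPM averaged 1 or more, those most like DDIT3 were the HSP40 gene DNAJB1 (0.928), HERPUD1 (0.920) and TSC22D3 (0.914). Those most like ATF3 were INSIG1, a sterol sensor partner (0.978), the glycyl-tRNA synthetase gene GARS1 (0.965) and the HSP70 gene HSPA8 (0.953). For CEBPB they were ZNF619 (0.951), the growth factor gene VEGFA (0.946) and GCLM of glutathione synthesis (0.924), and for ATF4 the RNA polymerase II gene POLR2A (0.989), TBCD (0.985) and CAD of pyrimidine synthesis (0.985). CEBPG was nearest to SEPHS1 (0.938), PPP1CC (0.927) and RAB11A (0.921), and ATF5 to PCNX3 (0.981), AKIRIN2 (0.951) and DDX28 (0.950). TRIB3 was nearest to FBXO31 (0.877), ABHD17B (0.786) and NPHP4 (0.768), and PPP1R15A to VPS33B (0.822), C12orf57 (0.821) and RBIS (0.782). NUPR1 went with THBS1 (0.914), IGFBP3 (0.900) and IGFBP5 (0.895). The correlations span both the clone difference and the ligand difference and carry no test.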

How the data were processed

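The labels' protocols describe frozen cell pellets sent to a commercial laboratory, polyA selection and a NEBNext Ultra II library kit. The authors deposited unnormalized read counts, which the file headers give for 36601 genes, 22344 guides and 4 summary entries. The submitters' processing notes name GRCh38 and Cell Ranger 7 without a role for bulk RNA. Aligner and strand setting: not given in the sources used here, so overlapping genes may share reads. Guides (0.00831 to 0.0125% of deposited counts) and summary entries (16.1 to 17.6%) entered neither library sizes nor tests.

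Counts were tested with edgeR 4.0.16 (R 4.3.3): filterByExpr by group (14892 genes left), TMM scaling, a mean per group over the 12 libraries, robust two-sided quasi-likelihood F-tests, and Benjamini-Hochberg adjustment over these genes. Fitted values use a prior count of 0.125, and standard errors are log2 fold changes divided by the square root of F. Intervals are 95%, from the t distribution with each gene's own degrees of freedom. Alternatives were DESeq2 1.42.0, RLE scaling, no filter on low counts, limma-voom (limma 3.58.1), a replicate block, a term for epithelial transcripts, each library left out, each clone alone and the epithelial classes alone. The libraries were split into epithelial classes at the largest gap in the summed markers. The code was tested on simulated data. Symbols were matched for 36366 gene IDs. Transcript lengths were not used, so levels are not compared between genes.

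The 9 members and all lists were chosen with earlier results of these data known. Named are all members, the 5 genes with the smallest p of each list and every gene past the threshold where they are 5 or fewer, and the 3 genes most like each member among 11675 (log2 CPM with prior count 2). SESN2, VEGFA, DDIT4 and ASNS were named after their values were seen. No label states that replicates came from separate cultures, so a p-value here measures spread that may be technical. Replicate pairs differed by more than counting noise (chi-square per degree of freedom 1.95 to 8.71).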

Additional observations from a re-analysis of the deposited data

Results flagged for a closer look

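For 7 of the genes named around the members, the HyT36 response differed between the clones by the interaction contrast of the same edgeR model. The clone 5 response minus the clone 4 response was -0.96 ± 0.18 on the log2 scale for CHAC1 (SE, adjusted p 0.0060), -0.43 ± 0.07 for HERPUD1 (adjusted p 0.0014) and -0.38 ± 0.08 for STC2 (adjusted p 0.021). It was -0.72 ± 0.13 for SESN2 (adjusted p 0.044) and -0.44 ± 0.10 for VEGFA (adjusted p 0.021). It was -0.58 ± 0.05 for XBP1 (adjusted p 6.9e-09) and -2.11 ± 0.38 for NIBAN1 (adjusted p 0.0060, edgeR). CHAC1, HERPUD1 and STC2 rose in both clones and by less in clone 5, XBP1, SESN2 and VEGFA rose in clone 4 and did not pass in clone 5, and NIBAN1 fell in clone 5 from a low level and did not pass in clone 4. With limma-voom the adjusted p was 0.073 for CHAC1 and 0.15 for NIBAN1. The STC2 difference was -0.22 (adjusted p 0.40, edgeR) with a term for epithelial transcripts and also lost its call without any 1 of 8 libraries (adjusted p 0.055 to 0.11), and that of NIBAN1 without clone 5 HyT36 replicate 2 (0.062) or 3 (0.052). The SESN2 difference lost its call without any 1 of 8 libraries (0.052 to 0.19), and that of VEGFA without any 1 of 4 (0.058 to 0.11) and with the term for epithelial transcripts (0.10). The HERPUD1 and XBP1 differences passed in all 18 alternatives. None of the 9 members passed this test.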

How the results depend on the processing

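Depth limits DDIT3 and NUPR1 most, with 23 to 150 and 7 to 90 reads per library. Same-numbered DMSO and HyT36 libraries deviated from their group means with r of -0.541, -0.25 and -0.26 in clone 4 and -0.028, -0.042 and -0.009 in clone 5. In clone 4 each such pair joined a library with few and a library with many epithelial transcripts. Clone 4 pairs alike in these transcripts had r of 0.351 to 0.423. The clone 4 values therefore cannot show whether the numbers pair the samples. With the numbers as a replicate block, 758, 1136 and 60 genes were called in the clone 4 response, the clone 5 response and their difference, against 830, 1219 and 45. Among members the block ended the CEBPB call in clone 4 (adjusted p 0.13). DESeq2 gave no adjusted p for DDIT3 (log2 1.73, p 1.2e-10) and GDF15 (log2 -1.66, p 2.5e-06) in clone 4, nor for the NUPR1 response in either clone. The cause of the changes below was not tested, beyond fewer libraries in a fit.

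With 1 library left out at a time, the clone 4 response gave 409 to 851 genes and 3 to 5 members, the clone 5 response 755 to 1618 genes and 1 to 3 members, and their difference 25 to 140 genes and 0 to 1 members. The lowest counts came without clone 4 HyT36 replicate 3 (409), clone 5 DMSO replicate 1 (755) and clone 5 HyT36 replicate 1 (25), and the 140 without clone 4 DMSO replicate 1, when NUPR1 was the 1 member. The libraries with few epithelial transcripts alone gave 287 genes for clone 4 (33.8% of them higher), and those with many 1177 (48.3% higher), against 830 (39.6% higher) with all libraries. With a term for epithelial transcripts, the clone 5 response gave 776 genes and 1 member (ATF3), and the difference 244 genes, 86.1% of them higher against 42.2%, and 1 member (CEBPG). No filter on low counts gave 169 genes for the difference.

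Sign changes were seen for values that did not pass. With the epithelial term, CEBPG in clone 5 was -0.11, NUPR1 0.91 in clone 5, 2.28 for the difference, -0.96 for the clones with DMSO and 1.32 with HyT36, and DDIT3 0.28 and CEBPG 0.01 for the clones with DMSO. Within one epithelial class of libraries, ATF5 in clone 4 was 0.02 (many) and NUPR1 0.32 (few). Limma-voom gave 0.01 for DDIT3 between clones with DMSO. XBP1 in clone 5 was 0.01 with DESeq2, RLE scaling, no filter, the epithelial term and clone 5 alone, and the ATF4 difference was 0.00 with DESeq2, RLE scaling and no filter and 0.02 with the epithelial term. Leaving out single libraries moved ATF5 in clone 4 over -0.05 to 0.01, NUPR1 in clone 4 over -1.38 to 0.99, CEBPG in clone 5 over -0.01 to 0.04, XBP1 in clone 5 over -0.02 to 0.03, the ATF4 difference over -0.05 to 0.04, and DDIT3 and NUPR1 between clones with DMSO over -0.24 to 0.28 and -0.43 to 1.95.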
